A study of Homo sapiens with 6 samples.

Results

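The genes described here lie at the tip of the short arm of human chromosome 1, from SAMD11, near the telomere, to SMPDL3B. They are the gene rows of one count table whose Ensembl identifiers fall between those 2 genes by start in GENCODE 29 and which hold 60 or more counts summed over all 6 libraries, with 8 genes of the interval left out by name. This gave 242 members of 20169 gene rows, and 242 of the 13103 genes that could be tested. The stretch was chosen because its genes were lower in one of the lines compared, so the differences between the lines below describe the members, and no p-value is given for them.

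The study behind the table concerns the effect of 3′UTRs on gene expression and used landing pad lines, in which a fixed genomic site takes up an inserted cassette. The lines derive from HEK293T, an established line of transformed human embryonic kidney cells. One carries a landing pad with the PGK promoter, taken from a housekeeping glycolytic gene, and the other a landing pad with the CAG promoter, a strong hybrid promoter. PolyA RNA of each line was sequenced in 3 libraries. Both lines are described as monoclonal, with 1 line per promoter, so the promoter cannot be told apart from the clone that carries it. Whether the 3 libraries per line are separate cultures is not stated in the labels, so the spread between them may be technical.

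The region, cytogenetic band 1p36 with the band next to it, is gene-dense and GC-rich. Its genes have unrelated functions and include transcription factors, metabolic enzymes, kinases, splicing factors and ubiquitin ligases, so that what they share is position rather than a pathway. It is known in medicine for deletions: loss of distal 1p recurs in neuroblastoma and other tumours, and a deletion present from birth gives the 1p36 deletion syndrome.

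Stretches of promoter sequence are shown for 6 members, picked after their values were seen: the 3 that departed most from the others, 2 that were lower with the arm and 1 of the innermost genes, which went the other way. Each line gives the 30 bases before the RefSeq start of the gene, 5′ to 3′ on the strand of the gene, on GRCh38.p14, with each CG dinucleotide in capitals because promoters of the arm are CpG-rich. These are RefSeq coordinates and not those of the deposited table, which was made on hg19.
RBP7 (chr1:9997198-9997227, plus strand): gtttataggtccCGgccCGagcctcCGgcc
AGMAT (chr1:15585052-15585081, minus strand): gcCGgctCGggttcCGgctctggCGCGtgc
MFAP2 (chr1:16981584-16981613, minus strand): cagaaagagcaaatgCGgtttcttgggatt
ID3 (chr1:23559502-23559531, minus strand): ctataagtgacCGcCGCGgCGagCGtgCGc
NUDC (chr1:26921713-26921742, plus strand): gcCGCGCGCGtgCGtgtttcCGgctcCGct
PPP1R8 (chr1:27830752-27830781, plus strand): ctgctgggatgcCGcttttcccttctCGgt
Over the full RefSeq window of 300 bases, from 250 before the start to 50 after it, MFAP2 held 5 CpG, AGMAT 19, PPP1R8 20, ID3 27, RBP7 29 and NUDC 35.

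Libraries held between 21896246 and 23442542 counts. The kidney-lineage factor PAX2 was at 1.11 to 2.05 CPM (read counts scaled to a common library size, with TMM factors) in the 6 libraries, and for 2 other markers of the line the PGK and CAG libraries did not overlap. EYA1 was at 2.15 to 2.92 CPM in PGK and 4.52 to 5.96 in CAG. The neuronal filament gene INA, which HEK293 lines are known to express, was at 10.0 to 11.1 CPM in PGK and 45.5 to 46.3 in CAG. The part of these differences in the results was not tested. Of the markers of other cell types reported here, CD3E, ALB and COL1A2 were at 0 in every library, and PTPRC, LYZ, CDH5, TEK, APOA2, TTR and DCN did not exceed 0.133 CPM. Above that level were COL1A1 at 18.5 to 22.1 CPM and LUM, at 0.219 to 0.315 in PGK and 0.931 to 1.14 in CAG. In bulk RNA, fewer cells that express a gene and less RNA per cell cannot be told apart.

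Most members were at a lower level in the CAG line, and by a similar amount. The median log2 fold change, CAG over PGK, was -0.58, so the typical member stood at 66.9% of its PGK level in the CAG line, and the quartiles were -0.77 and -0.42. Over all tested genes the median was -0.00 and the quartiles -0.24 and 0.30. A fitted change below 0 was found for 219 of the 242 members.

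A gene was called where edgeR's quasi-likelihood test gave a Benjamini-Hochberg adjusted p under 0.05. In CAG, 204 members were called lower, 12 were called higher and 26 were not called. Of all 13103 tested genes, 30.4% were called lower and 31.6% higher, 62.0% in all. Because the members were chosen on this contrast, nothing is read from the difference between these shares. All 3 CAG libraries were below all 3 PGK libraries for 206 members and above them for 14, against 32.0% and 33.5% of the tested genes.

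The difference can be seen in each library. Members made up 1.804%, 1.783% and 1.809% of the counts of PGK libraries 1 to 3, and 1.263%, 1.258% and 1.266% of CAG libraries 1 to 3. The lines do not overlap, and libraries of a line lie close together. Relative to each gene's PGK mean (log2 of CPM plus 0.05), the median member was at 0.01, -0.03 and 0.01 in the PGK libraries and at -0.58, -0.59 and -0.58 in the CAG libraries. For all tested genes the same medians ran from -0.01 to 0.01 over the 6 libraries.

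**Figure D1:**
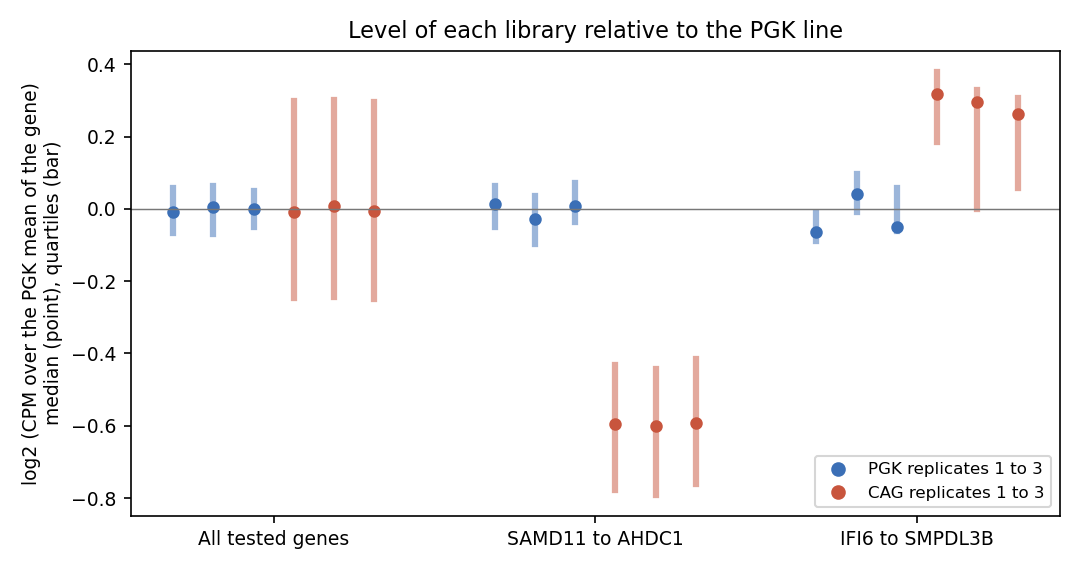
Median (points) and quartiles (bars) of the log2 ratio of each gene's CPM to its PGK mean, on the y axis, for each library, over all tested genes, the members from SAMD11 to AHDC1 and the members from IFI6 to SMPDL3B. The CAG medians of the first stretch are -0.59, -0.60 and -0.59, while those of the 7 innermost members are 0.32, 0.30 and 0.26.

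Most members lay close to their common median. Within 0.25 log2 units of the group's own median were 153 members, or 63.2%, and 48.4% of all tested genes. The share was similar, at 62.5%, in the next 40 tested genes after SMPDL3B, so it is not particular to the members. Of the 242, 24 were lower by 2-fold or more and 5 were higher by 2-fold or more. Spread depended on level. Among the 81 members with the lowest mean, 0.465 to 17.5 CPM, 30.9% were within 0.25 of the median, which was -0.66, and the median standard error was 0.13. The 80 members in the middle, at 17.5 to 56.2 CPM, had 80.0% within that distance, a median of -0.59 and a standard error of 0.07. The 81 most abundant, at 56.6 to 658 CPM, had 77.8% within it, a median of -0.56 and a standard error of 0.05. Wide scatter was thus a feature of weakly expressed members, whose own errors were also larger.

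**Figure D2:**
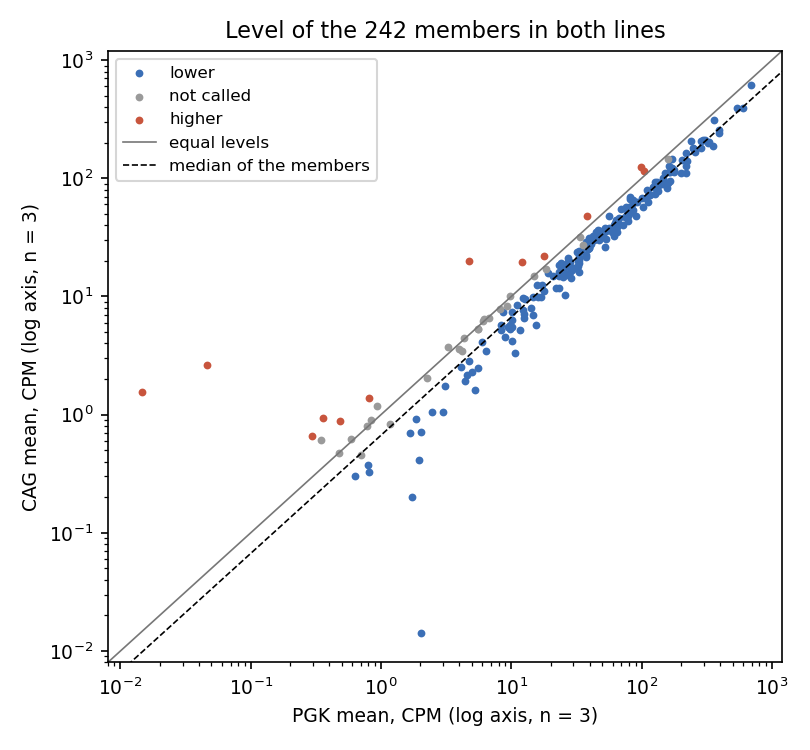
Mean CPM (n = 3) of the 242 members in the PGK line (x, log axis) and the CAG line (y, log axis), coloured by edgeR call. Most points follow the dashed line, drawn at the median ratio of 66.9%, over the whole range of levels, and the 3 points farthest from it are RBP7, AGMAT and MFAP2.

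The difference ran along most of the arm. In 10 consecutive blocks of 24 or 25 members from the telomere inward, the medians were -0.62, -0.55, -0.61, -0.56, -0.60, -0.61, -0.67, -0.62, -0.52 and -0.53. Blocks 1 to 9 held 20 to 23 members called lower and 0 to 3 called higher. Block 10, from RPS6KA1 to SMPDL3B, held 14 called lower and 7 called higher. The longest run of neighbours with a fitted change below 0 was 40 genes, from UBE2J2 to TP73, and the longest run called lower was 27 genes, from FAM131C to HTR6. A running median over 15 neighbours was lowest at AKR7A2, at -0.83. Its highest value was -0.47, at PAFAH2, among members at least 15 places before AHDC1, and -0.11, at WASF2 and AHDC1, where the window takes in the innermost genes.

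**Figure D3:**
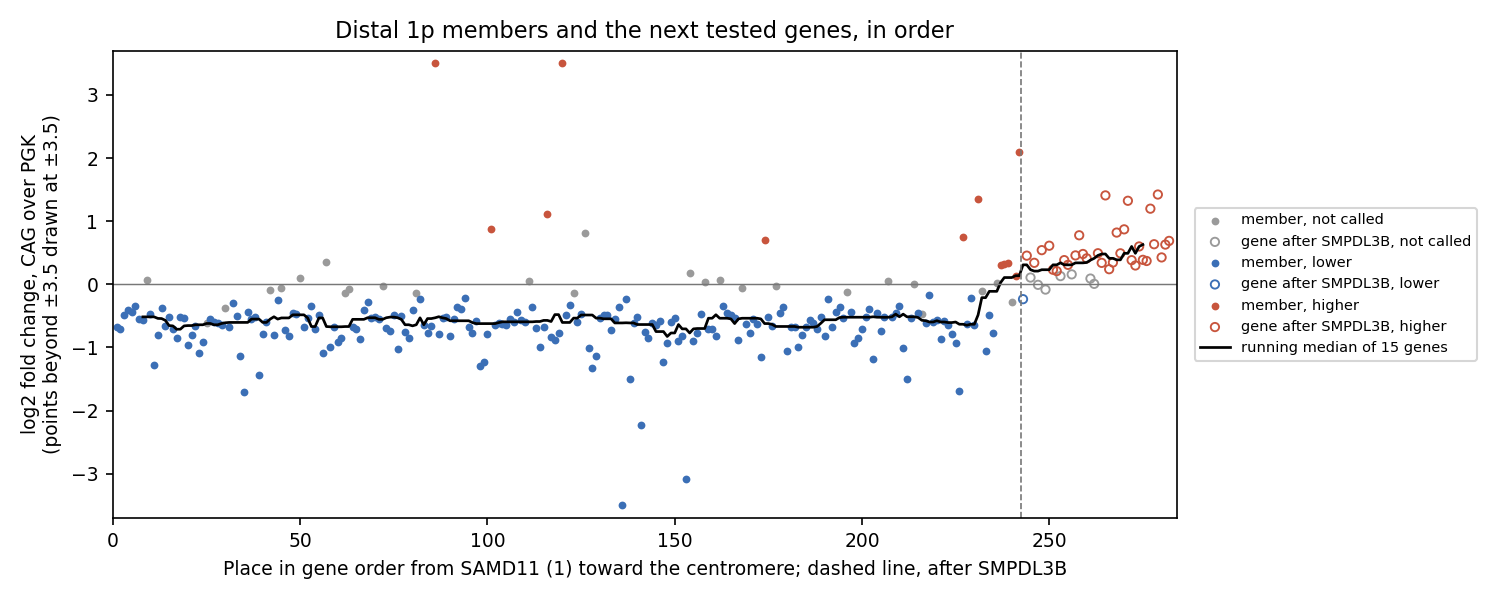
Log2 fold change, CAG over PGK (y), of the 242 members (filled) and the next 40 tested genes (open) by place in gene order from SAMD11 (x), coloured by edgeR call, with the running median of 15 genes as a line. The line stays below 0 along the arm and passes above 0 at FAM76A, just before the last member at the dashed line, and RBP7, AGMAT and MFAP2 are drawn at the edge of the axis.

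SAMD11, the first member and a sterile alpha motif protein gene, had 120, 104 and 122 CPM in the PGK libraries and 74.4, 70.1 and 72.6 in the CAG libraries, a log2 fold change of -0.67 (SE 0.06). NOC2L, a nucleolar protein gene on the other strand that overlaps it, had 401, 378 and 399 CPM in PGK and 248, 234 and 241 in CAG (-0.71, SE 0.05). For both, all CAG libraries were below all PGK libraries. No source used here states whether the counting used strand, so reads of such overlapping pairs cannot be told apart. Not every overlap of a named gene is given below. Members with an overlapping gene on the other strand (98) had a median of -0.61, and the 144 without one a median of -0.57.

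Not all genes of the interval are members. Of its 375 rows, 57 besides the members and the genes left out by name had no count, and 68 had 1 to 59 counts. Those 68 summed to 650 counts in PGK and 494 in CAG. Just outside the minimum were EXTL1 with 52 counts, CALML6 with 54 and MMP23B with 55. The 7 genes left out by name that had counts were also lower in CAG: the ribosomal protein genes RPL11 (-0.95) and RPL22 (-0.87), SDHB (-0.82), ENO1 (-0.65), ISG15 (-0.61) and both MRPL20 and EXOSC10 (-0.52), while TRIM63 had 0 counts.

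By role, 28 transcription factors and co-regulators were listed, of which 19 are members, and all 19 were called lower, with a median of -0.60. Of all members 84.3% were called lower, and of all tested genes 30.4%. Nothing about a role is therefore read from the calls of this list or of those that follow. SPEN, a large corepressor that acts in Notch signalling and X inactivation, had 563, 663 and 577 CPM in PGK and 348, 422 and 416 in CAG (-0.60, SE 0.08). FLJ37453 overlaps it on the other strand, so some of its reads may be uncertain. ID3, an inhibitor of basic helix-loop-helix factors, whose promoter is among those shown, had 229, 205 and 223 CPM in PGK and 117, 105 and 109 in CAG (-0.99, SE 0.05). ZNF593, a zinc finger gene, had 53.4, 47.8 and 56.1 CPM in PGK and 27.4, 24.3 and 26.8 in CAG, which is 49.9% of the PGK level. In these 3 genes every CAG library was below every PGK library, and ID3 and ZNF593 stood further below than most of the arm. ZNF593 overlaps AL391650.1 on the other strand.

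E2F2, a cell cycle factor chosen after its values were seen, lay near the median, with 50.5, 48.7 and 52.7 CPM in PGK and 29.9, 32.7 and 32.2 in CAG (-0.68, SE 0.06). PAX7, a factor of muscle and neural crest development chosen in the same way, was scarce, at 1.86, 2.16 and 1.84 CPM in PGK and 0.222, 0.593 and 0.420 in CAG (-2.22, SE 0.28). The list thus ran from PRDM16 at -0.25 to PAX7, with no member above 0.

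Of the 19 listed genes of chromatin, mitosis, replication and DNA repair, 16 are members: 13 were called lower, 1 higher and 2 not called, with a median of -0.54. HMGN2, a nucleosome-binding protein and the most abundant member, had 736, 666 and 683 CPM in PGK and 638, 619 and 603 in CAG (-0.16, SE 0.05). Its lines do not overlap, yet it differed less than most members, and its many processed copies make its counts uncertain. RCC2, a regulator of chromosome condensation and mitosis, had 402, 398 and 386 CPM in PGK and 269, 253 and 254 in CAG (-0.61, SE 0.05), close to the median of the arm, with AC004824.1 on the other strand. KDM1A, the histone demethylase LSD1, had 247, 262 and 252 CPM in PGK and 178, 179 and 176 in CAG (-0.51, SE 0.04). NUDC, a dynein-associated protein of mitosis and neuronal migration, had 369, 341 and 354 CPM in PGK and 195, 181 and 182 in CAG (-0.93, SE 0.05). KDM1A and NUDC were chosen after their values were seen, and both overlap genes on the other strand. CDK11A and CDK11B, near-identical copies whose reads may be split, were at -0.38 (not called) and -0.61 (called lower). CHD5, a chromatin remodeller studied as a 1p36 tumour suppressor, had 1.07, 0.764 and 0.964 CPM in PGK and 1.2, 1.48 and 0.881 in CAG (0.35, SE 0.26), overlapping ranges, and was not called.

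Cell death genes numbered 6 of 7 listed, with 5 called lower, 1 not called and a median of -0.51. CASP9, the initiator caspase of the mitochondrial pathway, had 23.0, 21.3 and 21.5 CPM in PGK and 12.3, 11.2 and 12.1 in CAG (-0.88, SE 0.07). DFFA, the inhibitor of the caspase-activated nuclease, had 305, 302 and 308 CPM in PGK and 212, 213 and 204 in CAG (-0.54, SE 0.04). Neither gene's libraries overlap between lines, and both overlap a gene on the other strand. TNFRSF25, a death receptor, had 2.52, 1.66 and 2.63 CPM in PGK and 1.86, 2.08 and 2.22 in CAG (-0.14, SE 0.20), overlapping ranges, and was not called. It is the one member among the 7 TNF receptor family genes listed, and it overlaps ESPN on the other strand and PLEKHG5 on its own.

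For RNA processing and translation, 16 of 18 listed genes are members, of which 14 were called lower, 1 higher and 1 not called, with a median of -0.55. HNRNPR, a nuclear RNA-binding protein, had 557, 554 and 513 CPM in PGK and 418, 394 and 379 in CAG (-0.45, SE 0.05). TARDBP, which encodes the splicing regulator TDP-43, had 359, 366 and 351 CPM in PGK and 312, 312 and 303 in CAG (-0.22, SE 0.04). Both were lower in every CAG library, TARDBP by less, and AL109811.4 overlaps TARDBP on its own strand. Picked after seeing the values, SRRM1, a splicing coactivator, had 150, 163 and 162 CPM in PGK and 149, 149 and 141 in CAG (-0.12, SE 0.05). It was not called although its lines do not overlap. SSU72, a phosphatase of the RNA polymerase II tail (-0.91), and SYF2, a spliceosome protein (-0.93), were at the other end of the list.

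Mitochondrial and metabolic genes were the largest role list, with 28 of 35 listed genes as members. Of these 27 were called lower and 1 was not called, with a median of -0.66. PARK7, which encodes the redox-sensitive protein DJ-1, had 334, 325 and 317 CPM in PGK and 207, 198 and 197 in CAG (-0.70, SE 0.05). MFN2, an outer-membrane fusion protein, had 228, 220 and 215 CPM in PGK and 165, 159 and 165 in CAG (-0.44, SE 0.05). Both were lower in each CAG library. PINK1, the kinase that marks damaged mitochondria, chosen after its values were seen, had 76.1, 82.2 and 78.6 CPM in PGK and 48.5, 48.5 and 48.2 in CAG (-0.71, SE 0.05), and PINK1-AS overlaps it on the other strand. The exception was DHRS3, a retinaldehyde reductase, with 5.82, 6.97 and 5.35 CPM in PGK and 6.61, 5.17 and 6.92 in CAG (0.04, SE 0.13). Its ranges overlap, and the sign of its change depended on which library was left out.

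**Figure D4:**
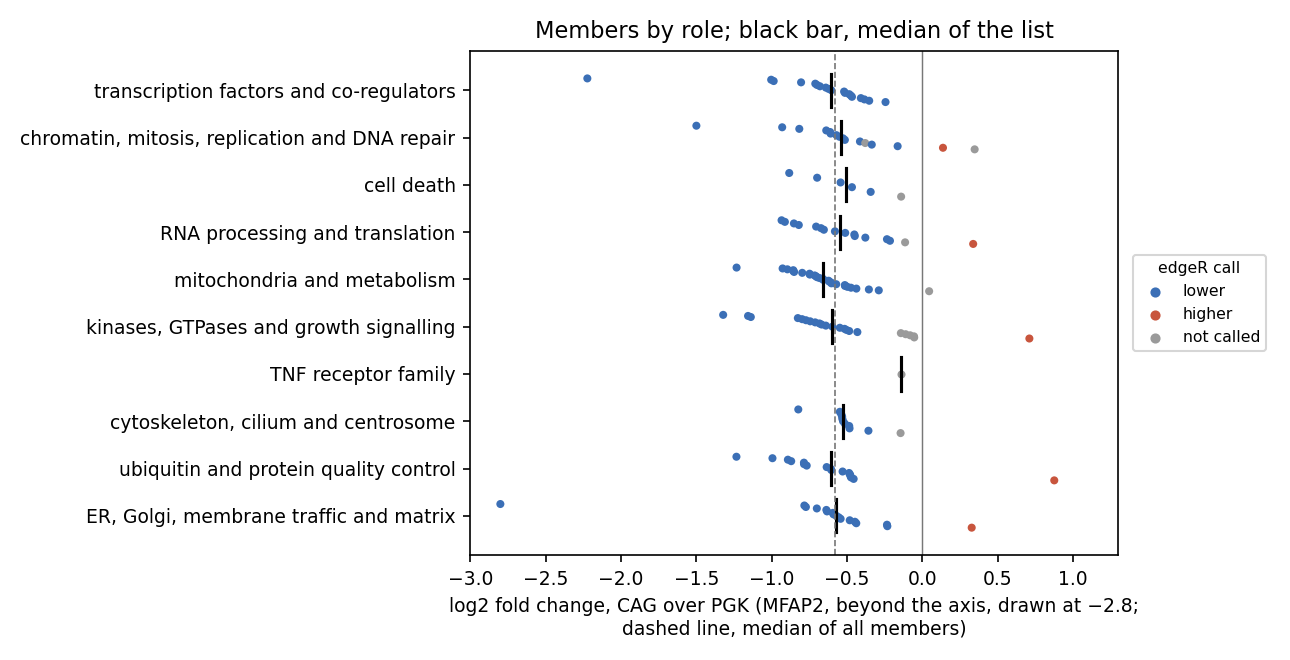
Log2 fold change, CAG over PGK (x), of the members of each role list (y), coloured by edgeR call, with the median of each list as a black bar. The medians of the 9 lists with more than 1 member lie between -0.66 and -0.51, near the dashed line at -0.58, and the higher calls are RPA2, PPP1R8, EPHB2, FBXO6 and STX12.

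Of 27 listed kinases, GTPases and growth signalling genes 23 are members, with 17 called lower, 1 higher, 5 not called and a median of -0.60. GNB1, a G protein beta subunit, had 281, 312 and 300 CPM in PGK and 214, 207 and 209 in CAG (-0.50, SE 0.05). CDC42, a GTPase of cell polarity and the actin cytoskeleton, had 261, 249 and 247 CPM in PGK and 174, 177 and 167 in CAG (-0.55, SE 0.05). These abundant genes lay close to the median of the arm, and AL031281.3 overlaps CDC42 on the other strand. MTOR, the kinase of the growth pathway of that name, chosen after seeing its values, had 208, 235 and 210 CPM in PGK and 118, 132 and 132 in CAG (-0.77, SE 0.06), with ANGPTL7 and MTOR-AS1 on the other strand.

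The ephrin receptor genes of the arm went in opposite directions. EPHA2 had 26.5, 25.8 and 24.7 CPM in PGK and 9.85, 9.96 and 10.9 in CAG (-1.32, SE 0.08). EPHA8 had 11.3, 10.9 and 12.8 CPM in PGK and 5.50, 4.83 and 5.37 in CAG (-1.16, SE 0.10). EPHB2 had 12.1, 12.4 and 11.7 CPM in PGK and 19.4, 18.6 and 21.1 in CAG (0.71, SE 0.08). In none of the 3 did the lines overlap. EPHA8 and EPHB2 lie in the same part of the arm, among neighbours that were lower. Uncertainty from overlap on the other strand touches EPHA2 and EPHB2.

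Of 14 listed genes of cytoskeleton, cilium and centrosome 11 are members, with 10 called lower, 1 not called and a median of -0.53. STMN1, the microtubule-destabilising protein stathmin, had 250.0, 255 and 248 CPM in PGK and 180, 173 and 174 in CAG (-0.51, SE 0.04). FBLIM1, a filamin-binding adhesion protein, had 8.80, 9.44 and 9.42 CPM in PGK and 7.85, 8.22 and 8.94 in CAG (-0.15, SE 0.09), with overlapping ranges, and was the one not called.

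Among 21 listed genes of ubiquitin and protein quality control 17 are members, with 16 called lower, 1 higher and a median of -0.61. UBR4, a large N-recognin ubiquitin ligase, had 245, 283 and 240 CPM in PGK and 150, 176 and 177 in CAG (-0.61, SE 0.07). DNAJC11, a mitochondrial J-domain protein, had 147, 147 and 143 CPM in PGK and 102, 102 and 99.3 in CAG (-0.53, SE 0.05). RNF207, a RING finger protein known from cardiac repolarisation, had 9.45, 8.63 and 8.85 CPM in PGK and 4.26, 4.96 and 4.28 in CAG (SE of the log2 change 0.11), which put it at 50.1% of its PGK level. All CAG libraries were below all PGK libraries in these 3 genes, and DNAJC11 and RNF207 overlap genes on the other strand. The neighbouring F-box genes FBXO2, FBXO44 and FBXO6, substrate receptors of ubiquitin ligases that were chosen after seeing their values, were at -1.23, -0.79 and 0.87. FBXO6 was the scarcest, with 0.512, 0.494 and 0.438 CPM in PGK and 1.02, 0.805 and 0.839 in CAG. FBXO2 was also scarce, with means of 2.46 CPM in PGK and 1.05 in CAG, and it overlaps FBXO44 on the other strand.

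For the endoplasmic reticulum, Golgi, membrane traffic and matrix, 17 of 20 listed genes are members, with 16 called lower, 1 higher and a median of -0.57. DDOST, a subunit of the oligosaccharyltransferase that glycosylates nascent proteins, had 345, 318 and 317 CPM in PGK and 208, 197 and 198 in CAG (-0.70, SE 0.05). CLSTN1, a calsyntenin of vesicle transport, had 177, 169 and 165 CPM in PGK and 147, 141 and 147 in CAG (-0.23, SE 0.05). CAG libraries were lower throughout, CLSTN1 by less than most members. PIK3CD overlaps CLSTN1 on the other strand, and PINK1-AS overlaps DDOST on its own strand. The remaining 96 members belong to no list, and 74 of them were called lower, 7 higher and 15 not called, with a median of -0.58.

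Outside these lists, 7 genes with a mean of 5 CPM or more in PGK were lower by 2-fold or more: GABRD, TRNP1, MORN1, SCNN1D and, named after their values were seen, TMEM52 (-1.13), KCNAB2 (-1.09) and GPR157 (-1.02). KCNAB2 overlaps NPHP4 on the other strand. GABRD, the delta subunit of GABA-A receptors, had 5.22, 5.08 and 5.39 CPM in PGK and 1.86, 1.4 and 1.55 in CAG (-1.70, SE 0.15). TRNP1, a nuclear protein of neural progenitors, had 11.4, 10.5 and 10.3 CPM in PGK and 3.59, 2.63 and 3.73 in CAG (-1.69, SE 0.12). MORN1, a MORN repeat protein, had 17.1, 14.9 and 14.5 CPM in PGK and 5.63, 4.96 and 6.59 in CAG (-1.43, SE 0.11). These genes had no overlap between the lines. SCNN1D, the delta subunit of epithelial sodium channels, had 10.2, 9.12 and 11.2 CPM in PGK and 3.24, 5.0 and 4.32 in CAG (-1.28, SE 0.13).

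The 3 largest differences were in genes that 1 line hardly expressed. RBP7, a retinol-binding protein, had 1 count over the PGK libraries and 108 over the CAG libraries, a CAG to PGK ratio of 103 (95% exact counting interval 18.0 to 4093). AGMAT, which encodes agmatinase, had 3 counts in PGK and 185 in CAG, a ratio of 58.6 (19.8 to 287). MFAP2, a microfibril-associated protein, went the other way, with 135 counts in PGK and 1 in CAG, a PGK to CAG ratio of 142 (25.1 to 5649). In CPM, the higher line was at 1.27 to 1.91 for RBP7, 2.48 to 2.94 for AGMAT and 1.88 to 2.16 for MFAP2. A count of 3 in a library corresponds to 0.126 to 0.140 CPM, and these intervals cover counting error only. AGMAT overlaps DNAJC16 and MFAP2 overlaps AL049569.1, each on the other strand. Few counts also lie behind the 3 members just inside the minimum of 60: GPR3 with 63 counts (-1.06, SE 0.40), HTR1D with 65 (-0.03, SE 0.37) and FHAD1 with 66 (1.12, SE 0.41). Calls of GPR3 and FHAD1 were lost when single libraries were left out, and HTR1D was not called.

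Between SAMD11 and AHDC1, the fitted change was above 0 for 17 of 235 members, and 5 of those reached 5 CPM in the higher line. Apart from EPHB2 and DHRS3 they were SH2D5, an SH2 domain protein (0.07), PAQR7, a progestin receptor (0.05), and SH3BGRL3, an SH3-binding protein (0.00), all with overlapping libraries and not called. SH3BGRL3 had 15.4, 13.3 and 16 CPM in PGK and 15.9, 13.2 and 15.7 in CAG. Of the 202 members of this stretch that reached 5 CPM in the higher line, 188 were called lower and 1, EPHB2, was called higher.

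The direction changed before the end of the interval, a point noticed after the values were seen. WASF2, an actin regulator of the WAVE complex, had 164, 173 and 173 CPM in PGK and 116, 124 and 125 in CAG (-0.49, SE 0.05). Its neighbour AHDC1, a DNA-binding protein, had 26.5, 24.3 and 27.9 CPM in PGK and 15.6, 15.4 and 15 in CAG (-0.78, SE 0.07). Both were lower in every CAG library, and no member beyond AHDC1 was called lower. The cut after AHDC1 was placed on these values, so the counts on either side of it are only a description. The 235 members up to AHDC1 had a median of -0.60, with 204 called lower and 7 higher. Over the 7 members beyond it the median was 0.31, or 123.8% of the PGK level, with 0 called lower and 5 higher.

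Of those 7, IFI6, an interferon-induced gene, had 3.82, 3.87 and 5.26 CPM in PGK and 5.01, 4.03 and 4.2 in CAG (0.03, SE 0.15). THEMIS2, a signalling adaptor of immune cells, was at -0.28 (SE 0.14), and neither of the pair was called. FAM76A had 17.1, 19.4 and 17.2 CPM in PGK and 22.4, 22.3 and 21.9 in CAG (0.31, SE 0.07). STX12, an endosomal syntaxin, had 38.2, 40.5 and 36.2 CPM in PGK and 49.1, 47.0 and 48.0 in CAG (0.33, SE 0.06). PPP1R8, a nuclear inhibitor of protein phosphatase 1 whose promoter is shown with the others, had 100.2, 101.4 and 94.0 CPM in PGK and 130.0, 124.9 and 118.2 in CAG (0.34, SE 0.05). These 3 genes were higher in every CAG library, by nearly the same amount.

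RPA2, a subunit of the single-stranded DNA-binding complex RPA, had 102.9, 105.4 and 104.5 CPM in PGK and 116.1, 111.6 and 116.1 in CAG (0.14, SE 0.05). Its lines do not overlap, but its call was lost without CAG library 1 (0.12) or CAG library 3 (0.13). SMPDL3B, the last member and a membrane phosphodiesterase that acts on sphingolipids, had 4.42, 4.58 and 5.08 CPM in PGK and 22.7, 18.1 and 19.6 in CAG (2.10, SE 0.10). Among members with 5 CPM or more in the higher line it had the largest rise, all CAG libraries lying above all PGK libraries, and AL512288.1 overlaps it on the other strand.

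**Figure D5:**
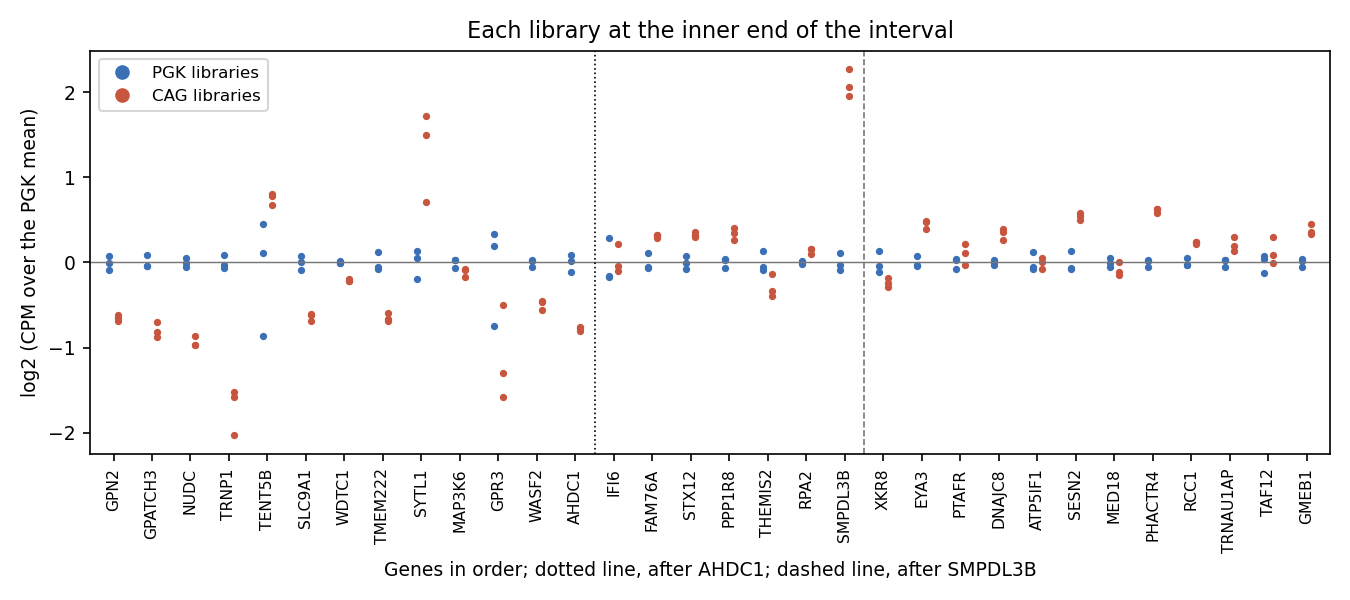
Log2 ratio of CPM to the PGK mean (y) in each PGK and CAG library for the genes around the inner end, in order (x), with a dotted line after AHDC1 and a dashed line after SMPDL3B. CAG points lie below PGK points for most genes left of the dotted line and above them for FAM76A, STX12, PPP1R8, RPA2 and SMPDL3B.

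Genes after the last member continued at the higher level. Of the next 40 tested genes toward the centromere, 32 were called higher in CAG and 1 lower, with a median of 0.40, or 131.9% of the PGK level. The 3 nearest were XKR8, a scramblase of dying cells (-0.24, SE 0.08), EYA3, a transcriptional coactivator and phosphatase (0.45, SE 0.05), and PTAFR, the receptor of platelet-activating factor (0.11, SE 0.24). XKR8 was the lower call, which was lost when single libraries were left out. The 1033 tested genes of chromosome 1 outside the interval had a median of 0.02, with 278 called lower and 366 higher.

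Some properties of the genes played no role in the choice of members, and their values are given as a description, with no test. The longest transcript of the median member had a GC content of 56.5%, against 48.4% over tested genes. Exon length, summed over the merged exons of all transcripts of a gene, had a median of 4.71 kb against 5.16 kb. RefSeq promoters were matched by Ensembl identifier, or by symbol where that gave no match, for 202 members and 10240 tested genes. The median promoter of 300 bases was 70.5% GC in members and 65.7% in tested genes, with 32 and 27 CpG. A CpG observed over expected ratio of 0.6 or more was found in 88.1% of member promoters and 84.3% of tested ones. The letters TATAAA on the gene's strand, 45 to 16 bases before the start, were in 0 of the 202 member promoters and in 1.53% of the 10240. Level is not one of these properties, because the stretch was chosen on the difference between the lines and members had to reach a minimum of counts. Per kilobase of exon, the median member had 7.69 CPM in PGK and 5.15 in CAG, where tested genes had 5.80 and 5.81. The lower CAG value of the members therefore restates the difference on which they were chosen.

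The difference between the lines was also compared among members grouped by these properties. The 125 genes on the plus strand had a median of -0.57 and the 117 on the minus strand -0.61. Genes spanning 100 kb or more (33) had a median of -0.53, and those under 10 kb (48) a median of -0.62. The 178 promoters with a CpG ratio of 0.6 or more had a median of -0.61, and the 24 below it, MFAP2 and AGMAT among them, a median of -0.40. Spearman correlations of the log2 fold change with length, GC content, CpG and level across the members lay between -0.18 and 0.09, given as a description of genes that share the same 6 libraries.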

How the data were processed

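PolyA RNA of 3 PGK and 3 CAG landing pad libraries was analysed. The authors deposited whole-number read counts per Ensembl gene, not normalised. The submitters' processing notes name hg19 and the tools featureCounts 2.0.3, HISAT2 2.2.1, Bowtie2 2.5.1 and cutadapt 4.6. No source used here gives the annotation release, strand setting or treatment of multiply mapped reads. GENCODE 29 (GRCh38) gave names, order, overlaps and lengths for 19346 of 20169 rows, so no gene coordinates are given from it. Of the members, 239 are protein-coding.

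Genes passing filterByExpr, the 242 members among them, were scaled by TMM and fitted with edgeR 4.0.16 in R 4.3.3 (robust quasi-likelihood, two-sided), adjusted by Benjamini-Hochberg over 13103 genes. Standard errors are on the log2 scale. The steps were tested on simulated data. RLE scaling, library size alone, other filters, limma-voom 3.58.1, DESeq2 1.42.0, a replicate block and leaving out each library were tried as alternatives.

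The members, role lists and rules were chosen with earlier results of these data known. Named were the first and last member, the 6 largest changes each way among members whose higher line had a mean of 5 CPM or more, the 5 most abundant, for each list the 2 most abundant and the one farthest from the median of the arm, the 3 nearest the 60-count minimum on each side and the next 3 genes; others were chosen after seeing values. The 6 columns matched the labels, with 0 left over. Library pairs of a line differed by more than sampling noise (chi-square per degree of freedom 3.00 to 8.42), so none was counted as a duplicate. Some cell type markers are not reported here.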

Additional observations from a re-analysis of the deposited data

How the results depend on the processing

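Under every alternative run, the median of the members and of each block and role list stayed below 0, and 201 to 204 of the 204 lower calls remained under each other scaling, gene filter, tool, block or left-out library. With library size alone the medians were -0.55 for the members, -0.53 for block 4, -0.49 for the cytoskeleton list and -0.54 for the endoplasmic reticulum list. Asking for 200 or more counts left 6 members called higher instead of 12, 7 with all CAG libraries above PGK instead of 14, and a median of -0.67 in block 3. With members up to AHDC1, an alternative added after seeing the data, these counts were 7 and 9, since the 7 innermost genes are then left out, and block 10 had a median of -0.63. Leaving out each library gave 201 to 203 lower calls, 8 to 12 higher calls, medians of -0.60 to -0.57 for the members and -0.64 to -0.55 for the transcription factor list. Over each other scaling, gene filter, tool, block or left-out library, 0 called members and 0 to 7 members that were not called changed sign. Of the genes named by rule, HTR1D and DHRS3 did. HTR1D was at 0.0051 with library size alone, at 0.018 with limma-voom, and ran from -0.29 to 0.19 with each library left out. DHRS3 ran from -0.041 to 0.16, below 0 without PGK library 3, CAG library 1 or CAG library 3. The cause was not tested. With the replicate number as a block the median was -0.58, with 205 lower and 12 higher calls among members, and over all genes the block raised lower calls from 3986 to 4400 and higher calls from 4139 to 4461. Deviations of same-numbered libraries correlated at 0.108, 0.103 and 0.013. Each library correlated best with its own number, a hint from the data and not from the design. For PGK library 3 the margin was slight, 0.013 with CAG library 3 against 0.010 with CAG library 2. The labels do not say that the numbers pair libraries, so they were not treated as pairs. Depth limits members of few counts, such as RBP7, AGMAT, MFAP2, GPR3, HTR1D and FHAD1.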
